A study of Homo sapiens with 6 samples.

Results

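AKR1B10 and 8 genes of the NRF2 antioxidant programme (NQO1, GCLC, GCLM, TXNRD1, SRXN1, HMOX1, SLC7A11 and NFE2L2) were described in HepG2, a cell line from a human hepatoblastoma with many traits of hepatocytes. They were chosen by name, with earlier results of these data known. The probe sets of each gene were those whose platform annotation gives that single symbol, and the one of highest mean signal was used for each gene. All 9 genes were found among 19775 genes with such a probe set, all 9 were among the 11921 genes tested, and all 9 lay above the floor, described below, on all 6 arrays. The groups were siHNF4A cells, transfected with an siRNA to the liver nuclear receptor HNF4A, and siControl cells, transfected with a control siRNA. Both received TGF-beta, a cytokine, at 3 ng/ml over 0, 1.5 or 24 h, and the 0 h cells had none. Each of the 6 combinations was 1 Affymetrix array of total RNA, so no group had a replicate, and the labels name 1 siRNA per arm without its sequence. All arrays later than 0 h were of cells with TGF-beta, so TGF-beta and time in culture cannot be told apart.

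NRF2, encoded by NFE2L2, is a transcription factor that KEAP1 binds in the cytoplasm and hands to the proteasome. When oxidants or electrophiles modify KEAP1, NRF2 escapes degradation, enters the nucleus, pairs with a small MAF protein and binds antioxidant response elements (AREs) near genes for glutathione synthesis, thioredoxin recycling and the reduction of quinones and carbonyls. Since KEAP1 acts on the protein, the level of the NFE2L2 transcript does not report the activity of NRF2, which was not measured here. AKR1B10, an aldo-keto reductase that reduces aldehydes and retinal, is a target of NRF2 in human cells and is often high in liver tumours.

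Promoters were available for 6 of the 9 genes (NQO1, GCLC, GCLM, TXNRD1, SRXN1 and NFE2L2), as the 250 bases before each RefSeq start in GRCh38.p14. AKR1B10, HMOX1 and SLC7A11 are named only. The ARE core TGACNNNGC, searched on both strands, lay in the windows of 2 of the 6 genes, GCLM and TXNRD1. Among 35116 promoters of the same length 3830 (10.9%) held it. That share counts windows and not genes, and TXNRD1 and NFE2L2 had 2 windows each, so the 2 counts are not in the same unit. The 3 windows with a match are shown because they hold the core letters of the element that NRF2 binds. Each is written 5′ to 3′ on the strand of its gene, with the match in capitals.
GCLM, chr1:93909431-93909680, minus strand: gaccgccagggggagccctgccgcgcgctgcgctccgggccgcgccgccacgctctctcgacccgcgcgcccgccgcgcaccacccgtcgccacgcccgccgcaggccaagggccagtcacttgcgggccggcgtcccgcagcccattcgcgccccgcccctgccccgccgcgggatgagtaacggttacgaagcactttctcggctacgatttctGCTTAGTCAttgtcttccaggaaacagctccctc
TXNRD1, chr12:104215529-104215778, plus strand: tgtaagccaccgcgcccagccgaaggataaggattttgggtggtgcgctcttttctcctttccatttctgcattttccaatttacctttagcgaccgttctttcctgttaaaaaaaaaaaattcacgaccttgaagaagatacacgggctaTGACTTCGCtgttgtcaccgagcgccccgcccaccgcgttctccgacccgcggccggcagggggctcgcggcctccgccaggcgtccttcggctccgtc
TXNRD1, chr12:104286782-104287031, plus strand: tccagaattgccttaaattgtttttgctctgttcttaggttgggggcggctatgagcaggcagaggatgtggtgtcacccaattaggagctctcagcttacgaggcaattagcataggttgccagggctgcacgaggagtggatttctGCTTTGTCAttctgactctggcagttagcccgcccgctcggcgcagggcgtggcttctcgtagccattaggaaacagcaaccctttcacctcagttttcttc
The GCLM match ran from 34 to 26 bases before the start and reads TGACTAAGC on the opposite strand. TXNRD1 has 2 starts in the RefSeq table. The match in its first window ran from 99 to 91 bases before the start and reads TGACTTCGC on the gene's strand, and that in the second ran from 102 to 94 bases before the start and reads TGACAAAGC on the opposite strand. The AP-1 site TGACTCA (4.2% of all promoters) and the HNF4 core CAAAGTC (2.91%), searched on both strands, were in none of the windows of the 6 genes. A match is a run of letters in this window and was not tested as a binding site.

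Values below are deposited MAS5 signals, scaled intensities with no unit that are comparable between arrays for 1 probe set but not between genes. The array medians were 12.4 to 13.3, and signals under 12.9, the median of all signals, were set to that floor. In 9 of 9 hepatocyte markers of HepG2 the signal was above the floor on all 6 arrays. On the log2 scale in limma TTR fell with siHNF4A (-0.52) and at 24 h (-0.54), FGB rose with siHNF4A (0.74) and fell at 24 h (-0.65), SERPINA1 rose at 24 h (0.34, a call that ended with quantile normalization or with the siControl 0 h array left out), and the others did not pass in either comparison. Of 8 measured markers of blood, endothelial and fibroblast cells, 2 (CD14 and PECAM1) were above it on all arrays and 4 (PTPRC, VWF, CDH5 and COL3A1) were at it on all. At 0, 1.5 and 24 h the signals of those 8 markers summed to 142.2, 103.2 and 201.3 in siHNF4A, against 126.1, 177.6 and 313.8 in siControl. These sums were highest at 24 h in both arms, when the 9 genes were at their lowest, and their part in the results was not tested. Such sums mix signals of unlike genes, and at 24 h in siControl PECAM1 (127.2) and CD14 (100.3) were the largest parts. CD14 (1.39) and PECAM1 (1.01) rose at 24 h in limma on the log2 scale, calls that ended without the siControl 0 h array, and CD14 fell with siHNF4A (-1.18). A control probe set for the 5′ end of a human sequence set the siControl 0 h array apart (8599.7, against 69.8 to 736.5 on the other 5 arrays), and calls that it changed among the 9 genes and the lists are given without it too. With bulk RNA, fewer cells expressing a gene and less RNA per cell cannot be told apart. The HNF4A signal is not reported, and the label of each siRNA arm was therefore not checked.

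AKR1B10 had the largest differences of the 9 genes in both comparisons, being lower with siHNF4A at each time and lower after 24 h of TGF-beta in each arm. In siHNF4A cells its signals at 0, 1.5 and 24 h were 1394.2, 1511.5 and 185.2. In siControl cells they were 3139.0, 2939.5 and 845.4. The siHNF4A signal thus lay below the siControl signal at every time, and both 24 h signals lay below all 4 earlier ones. In order from the highest, siControl at 0 h and at 1.5 h came first, then siHNF4A at 1.5 h and at 0 h, then siControl at 24 h and last siHNF4A at 24 h. The neighbours in the first and the second pair of that order differ by 1.5 h of TGF-beta, a difference that did not pass the test (0.01 ± 0.21 on the log2 scale with its SE, limma, adjusted p = 1.0).

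On the log2 scale AKR1B10 fell by 1.44 ± 0.17 with siHNF4A over the 3 times (limma with Benjamini-Hochberg adjustment over 11921 genes, adjusted p = 0.000101), which ranked 56th by p. It fell by 2.40 ± 0.21 at 24 h against 0 h over both arms (adjusted p = 5.63e-06), ranking 19th. Between single arrays the siRNA differences at 0, 1.5 and 24 h were -1.17, -0.96 and -2.19. The 24 h signal was 13.3% of the 0 h signal in siHNF4A (7.53-fold lower) and 26.9% in siControl (3.71-fold lower). The siHNF4A 24 h array had 5.9% of the siControl 0 h signal, a 16.95-fold difference. The siRNA difference at 24 h minus its mean at 0 and 1.5 h was -1.13 ± 0.22, a term that did not pass (limma, adjusted p = 0.44). With a pseudocount in place of the floor it did (-1.06, adjusted p = 0.0325 in limma). The siRNA call was lost when the probe sets of each gene were averaged (adjusted p = 0.0547), when dim genes were kept and when limma's intensity trend was left out. The AKR1B10 probe set is the array's 1 probe set for that gene, and its suffix _s_at marks probes that can match more than 1 transcript.

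**Figure D1:**
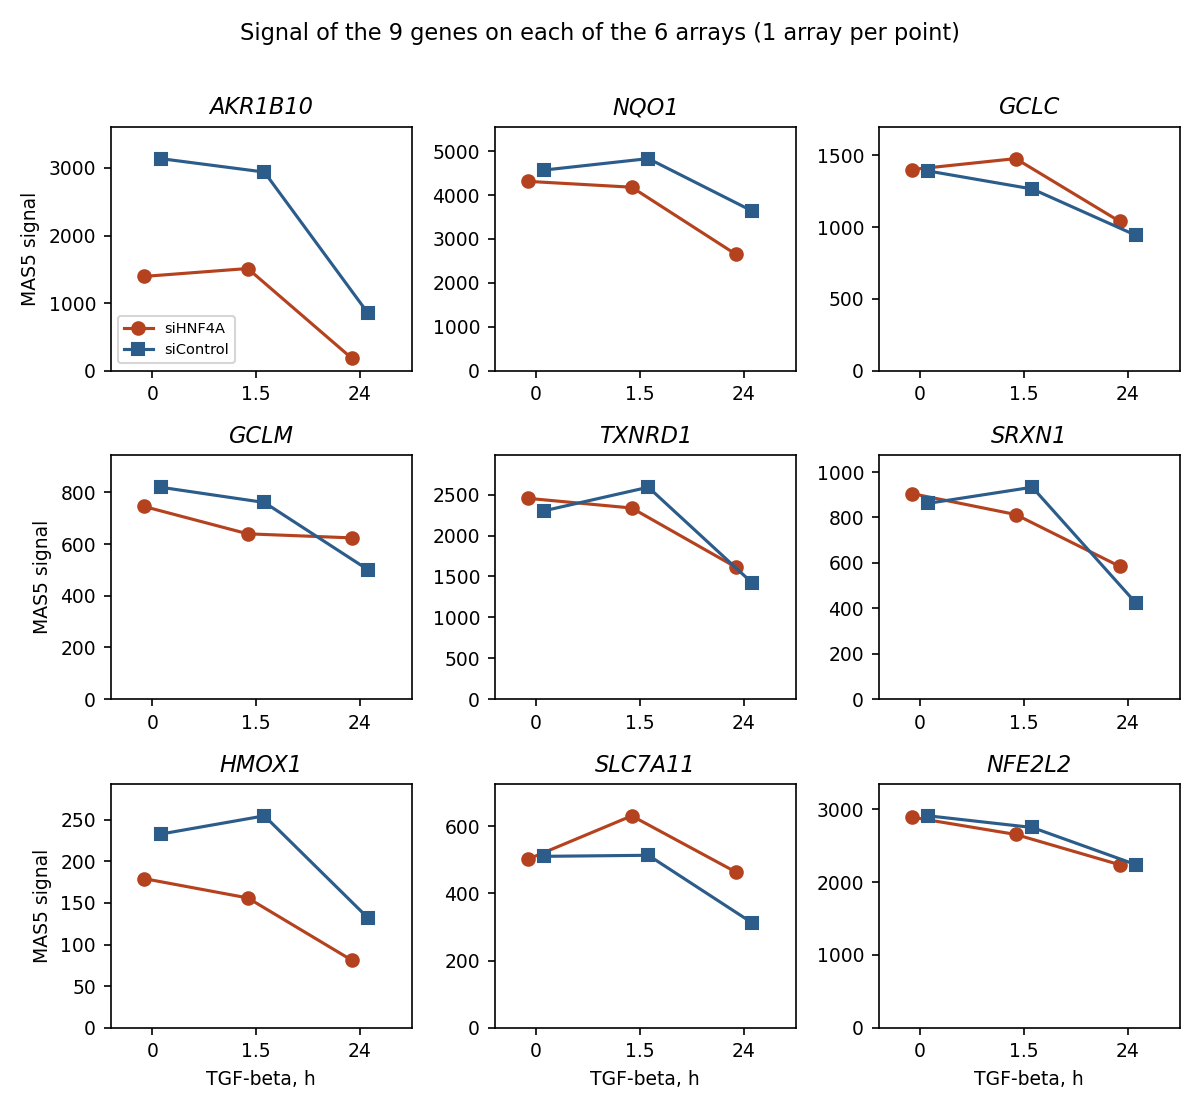
MAS5 signal (linear axis from 0, no unit) of the 9 genes against hours of TGF-beta, with 1 array per point and siHNF4A and siControl as separate lines. For AKR1B10, NQO1 and HMOX1 the siHNF4A line lies below the siControl line at all 3 times, and in every panel both 24 h points lie below the 4 earlier ones.

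Among the other enzymes that reduce carbonyls and quinones or break down heme, HMOX1 fell in both comparisons and NQO1 fell at 24 h. NQO1, a quinone reductase that serves as a standard readout of NRF2 activity, had signals of 4311.8, 4178.8 and 2654.4 in siHNF4A at 0, 1.5 and 24 h, against 4570.6, 4830.6 and 3636.9 in siControl. It fell by 0.51 ± 0.11 at 24 h (limma, adjusted p = 0.00474), with -0.70 in siHNF4A and -0.33 in siControl. The siHNF4A signal was the lower one at all 3 times, yet the siRNA difference of -0.25 ± 0.09 did not pass (limma, adjusted p = 0.101), except with quantile normalization (-0.31). Another NQO1 probe set was lower in siHNF4A at all 3 times too. A further NQO1 probe set was higher in siHNF4A at 1.5 h (4964.8, against 4773.9 in siControl).

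HMOX1, which breaks heme down to biliverdin, iron and carbon monoxide, had 179.1, 155.9 and 81.3 in siHNF4A at 0, 1.5 and 24 h, against 232.5, 254.4 and 131.6 in siControl. It was lower in siHNF4A at each time, with log2 differences from -0.71 to -0.38. HMOX1 fell by 0.59 ± 0.16 with siHNF4A (limma, adjusted p = 0.0318) and by 0.98 ± 0.19 at 24 h (adjusted p = 0.00342). At 24 h its difference between single arrays was -1.14 in siHNF4A and -0.82 in siControl. The siRNA call of HMOX1 ended without the 1.5 h pair of arrays and without the 24 h pair, with -0.54 in each case, and under the same 3 settings as that of AKR1B10.

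The glutathione genes did not pass for the siRNA, and the 2 subunits of the first enzyme of the pathway fell at 24 h. GCLC, the catalytic subunit of glutamate-cysteine ligase, had 1401.4, 1477.6 and 1040.4 in siHNF4A at 0, 1.5 and 24 h, against 1390.8, 1265.8 and 942.3 in siControl. It fell by 0.50 ± 0.12 at 24 h (limma, adjusted p = 0.0108), while the siRNA difference was 0.13 ± 0.10 (adjusted p = 0.511). At 0 h the siRNA arms were within a few signal units of each other, and at 1.5 and 24 h siHNF4A was the higher one.

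GCLM, the modifier subunit of the same ligase, had 745.5, 639.6 and 623.9 in siHNF4A at 0, 1.5 and 24 h, against 819.8, 760.8 and 500.2 in siControl. It fell by 0.48 ± 0.15 at 24 h (limma, adjusted p = 0.0433), a call that ended against 1.5 h in place of 0 h (-0.32, adjusted p = 0.192). The siRNA difference over the 3 times was -0.02 ± 0.12 (limma, adjusted p = 0.944). The siHNF4A signal was lower at 0 and 1.5 h and higher at 24 h, where the log2 difference was 0.32. The term for the siRNA difference at 24 h was 0.51 ± 0.24 and did not pass (limma, adjusted p = 0.999).

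SLC7A11, the xCT subunit that imports cystine for glutathione synthesis, had 501.4, 630.5 and 463.9 in siHNF4A at 0, 1.5 and 24 h, against 510.1, 513.2 and 312.2 in siControl. It was the 1 gene of the 9 that did not pass at 24 h against 0 h (-0.41 ± 0.16, limma, adjusted p = 0.105), with -0.11 in siHNF4A and -0.71 in siControl. Without the siControl 0 h array the difference was -0.18 and did not pass. Against 1.5 h, the time at which its siHNF4A signal was highest, it fell by 0.58 ± 0.16 at 24 h (adjusted p = 0.026). The siRNA difference was 0.28 ± 0.13 (limma, adjusted p = 0.231).

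Both thioredoxin pathway genes fell at 24 h and did not pass for the siRNA. TXNRD1, the cytosolic thioredoxin reductase, had 2454.4, 2336.0 and 1615.7 in siHNF4A at 0, 1.5 and 24 h, against 2303.4, 2590.1 and 1421.0 in siControl. It fell by 0.65 ± 0.11 at 24 h (limma, adjusted p = 0.00152), with -0.60 in siHNF4A and -0.70 in siControl, and the siRNA difference was 0.04 ± 0.09 (adjusted p = 0.852). SRXN1, the sulfiredoxin that restores over-oxidised peroxiredoxins, had 905.3, 813.0 and 585.2 in siHNF4A at 0, 1.5 and 24 h, against 862.5, 933.2 and 422.3 in siControl. It fell by 0.83 ± 0.16 at 24 h (limma, adjusted p = 0.00237), with -0.63 in siHNF4A and -1.03 in siControl. Its siRNA difference was 0.11 ± 0.13 over the 3 times (limma, adjusted p = 0.671) and 0.47 between the 24 h arrays, and the term for 24 h did not pass (0.54 ± 0.25, adjusted p = 0.999).

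NFE2L2, the gene of NRF2 itself, had 2891.8, 2655.0 and 2239.8 in siHNF4A at 0, 1.5 and 24 h, against 2910.5, 2750.6 and 2239.5 in siControl. The arms nearly coincided at 0 and 24 h, and the siRNA difference was -0.02 ± 0.08 (limma, adjusted p = 0.925). NFE2L2 fell by 0.37 ± 0.10 at 24 h (adjusted p = 0.0224), with -0.37 in siHNF4A and -0.38 in siControl. The call ended against 1.5 h in place of 0 h (-0.27, adjusted p = 0.0967 in limma).

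For the siRNA, 2 of the 9 genes fell (AKR1B10 and HMOX1), none rose and 7 did not pass. The same 2 fell when the siControl 0 h array was left out (AKR1B10 -1.58, HMOX1 -0.70). Over all 11921 genes 4.16% fell and 3.9% rose, and the median log2 difference was -0.02 over the 9 genes and -0.04 over all genes. The all-gene counts were 496 lower and 465 higher, or 385 lower and 559 higher when arrays were scaled to the same median, which also turned the median of the 9 genes to 0.03. With the probe set used for each gene, the siHNF4A signal lay below the siControl signal at all 3 times in 3 of the 9 genes and in 24.1% of all genes. A 2-fold lower signal between single arrays was reached by AKR1B10 at 0 h (1.63% of all genes) and at 24 h (3.05%), and by none of the 9 at 1.5 h (3.26%).

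At 24 h against 0 h, 8 of the 9 genes fell and none rose, where 7.82% of all genes fell and 7.22% rose. Since the 9 genes were chosen with earlier results of these data known, such shares are a description and not a test. The median log2 difference was -0.51 over the 9 genes, or -0.03 over all genes. Both 24 h signals lay below all 4 signals at 0 and 1.5 h in 9 of 9 genes, as in 18.4% of all genes. The single-array differences of the other genes were smaller than those of AKR1B10, between -1.14 and -0.11 in siHNF4A and between -1.03 and -0.33 in siControl. A signal at least 2-fold lower was seen in AKR1B10 and HMOX1 in siHNF4A (4.61% of all genes) and in AKR1B10 and SRXN1 in siControl (2.6%). Without the siControl 0 h array 5 of 9 fell (AKR1B10, NQO1, TXNRD1, SRXN1 and HMOX1), and GCLC (-0.41), GCLM (-0.40) and NFE2L2 (-0.38) did not pass. The count was 4 with the probe sets of each gene averaged, 2 with no intensity trend in limma and 0 with dim genes kept. Against 1.5 h in place of 0 h, 7 of 9 fell, where 7.01% of all genes did, and GCLM and NFE2L2 did not pass.

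**Figure D2:**
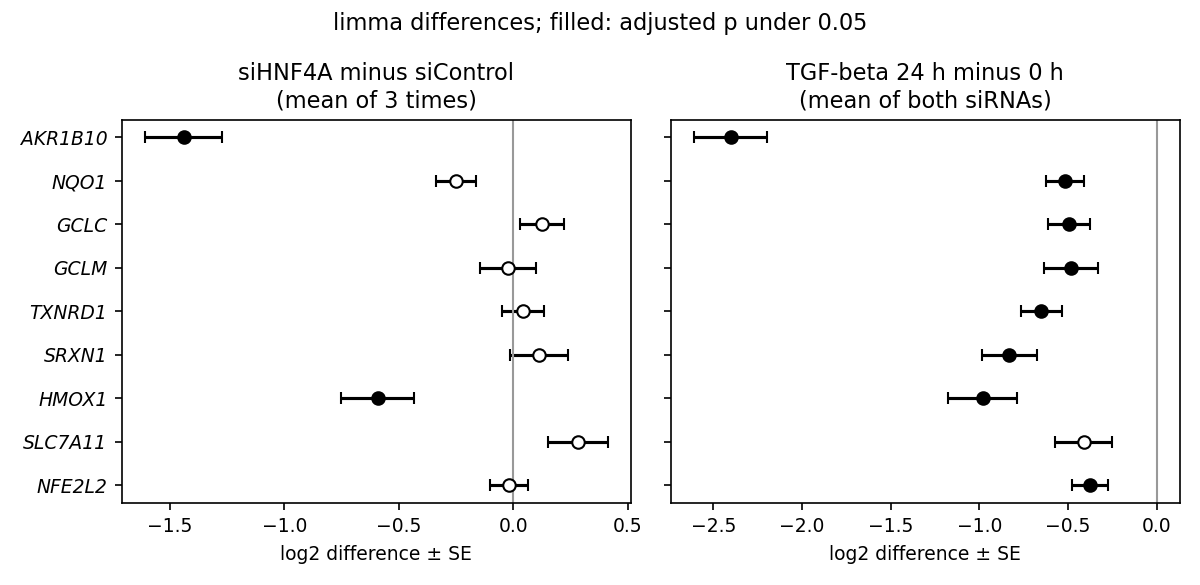
Log2 differences from limma with their SE for the 9 genes, siHNF4A minus siControl on the left (mean of 3 times) and 24 h minus 0 h on the right (mean of both siRNAs), with filled points at an adjusted p under 0.05. On the left AKR1B10 (-1.44) and HMOX1 (-0.59) are filled, and on the right all genes except SLC7A11 are.

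At 1.5 h none of the 9 genes passed in limma, and none had an unadjusted p under 0.05. Over all genes 12 passed (0.101%) and 364 had an unadjusted p under 0.05. The 1.5 h differences of the 9 genes between single arrays ran from -0.22 to 0.33 in siHNF4A and from -0.14 to 0.17 in siControl. The extremes in siHNF4A were GCLM at the low end and SLC7A11 at the high end.

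The term that compares the siRNA difference at 24 h with its mean at 0 and 1.5 h passed for none of the 9 genes and for none of the 11921 (0.0%), with a smallest adjusted p of 0.0703 in limma. An unadjusted p under 0.05 was found for 543 genes, and for AKR1B10 among the 9. The term was negative for AKR1B10, NQO1 (-0.31 ± 0.18) and HMOX1 (-0.15 ± 0.35), and in 50.7% of all genes. It was positive for the other 6, from 0.03 for NFE2L2 (SE 0.19) and for GCLC (SE 0.22) to 0.54 ± 0.25 for SRXN1. For HMOX1, NFE2L2 and GCLC the SE was larger than the term, so its sign is not settled.

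Other probe sets of the same genes read the 24 h difference again on the same arrays, so they are not replicates. The 9 genes had 20 probe sets, and 3 genes (AKR1B10, SRXN1 and HMOX1) had 1 each. Of the 11 probe sets not used above, 8 lay above the floor on all 6 arrays, and all 8 were lower at 24 h than at 0 h in both arms. For 1 of them, of GCLM, the difference in siHNF4A was close to none (-0.01). The share of all probe sets lower in both arms was not counted, so the 8 are a description. The other NQO1 probe sets had -1.05 and -0.74 in siHNF4A, against -0.57 and -0.48 in siControl. For NFE2L2 a second probe set had -1.01 in siHNF4A and -0.71 in siControl, larger than those of the one used. The other GCLM probe sets differed in order, 1 having -0.01 in siHNF4A and -0.91 in siControl and the other -0.68 in siHNF4A and -0.43 in siControl. The other SLC7A11 probe sets had -0.17 and -0.18 in siHNF4A, against -1.05 and -0.46 in siControl, so all 3 of that gene had the larger drop in siControl.

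**Figure D3:**
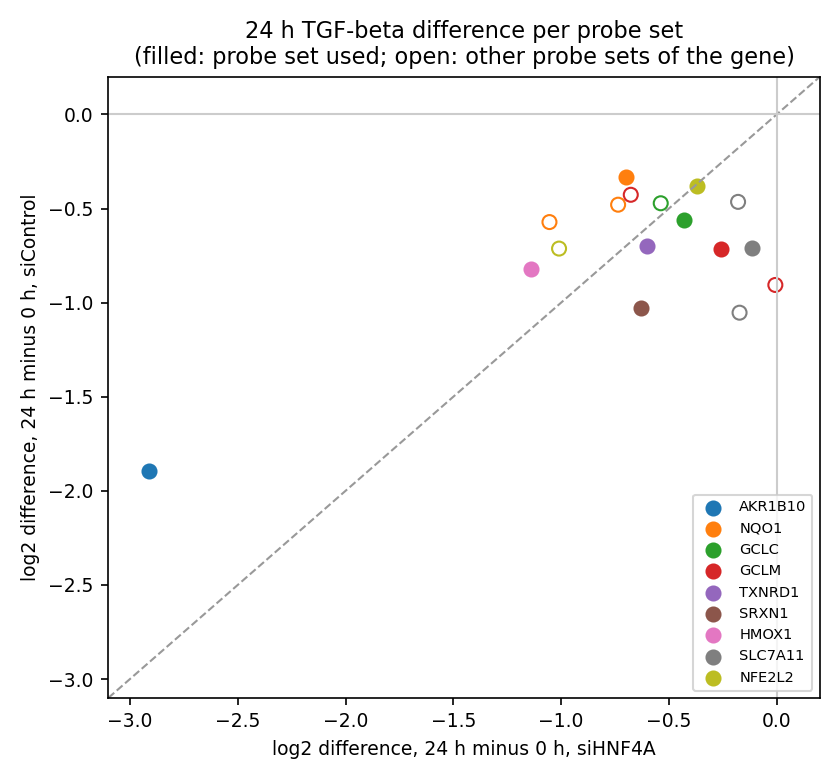
Log2 difference of 24 h minus 0 h in siHNF4A (horizontal axis) against that in siControl (vertical axis) for every probe set of the 9 genes above the floor on all arrays, each point being 1 pair of arrays on each axis. Filled points are the probe sets used, open points the others, and the dashed line marks equal differences. All points lie below 0 on both axes, AKR1B10 at -2.91 and -1.89.

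Likeness to AKR1B10 over the 6 arrays is given as a description of 6 points that share their groups. On the log2 scale NQO1 (Pearson r = 0.99) and HMOX1 (0.98) had the highest values of the other 8 genes. NFE2L2 had 0.82, TXNRD1 0.74, GCLC 0.65, SRXN1 0.64, GCLM 0.59 and SLC7A11 0.33. Of 2548 other genes above the floor on all arrays with a log2 range of at least 1, the 5 with the highest r to AKR1B10 were BIRC5, AURKA, PCLAF, ADH4 and SLC37A4, with r from 0.994 to 0.998. BIRC5 (survivin), AURKA (a mitotic kinase) and PCLAF (a PCNA-binding factor) are cell cycle genes, ADH4 is a liver alcohol dehydrogenase and SLC37A4 is the glucose-6-phosphate transporter. BIRC5, for example, had 847.2, 820.2 and 362.5 in siHNF4A at 0, 1.5 and 24 h, against 1090.5, 1130.2 and 668.3 in siControl. ADH4 had 349.2, 307.1 and 66.9 in siHNF4A, against 652.4, 586.4 and 237.5 in siControl. ADH4 came nearest to AKR1B10 in size, with log2 differences of -1.22 for the siRNA and -1.92 for 24 h.

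**Figure D4:**
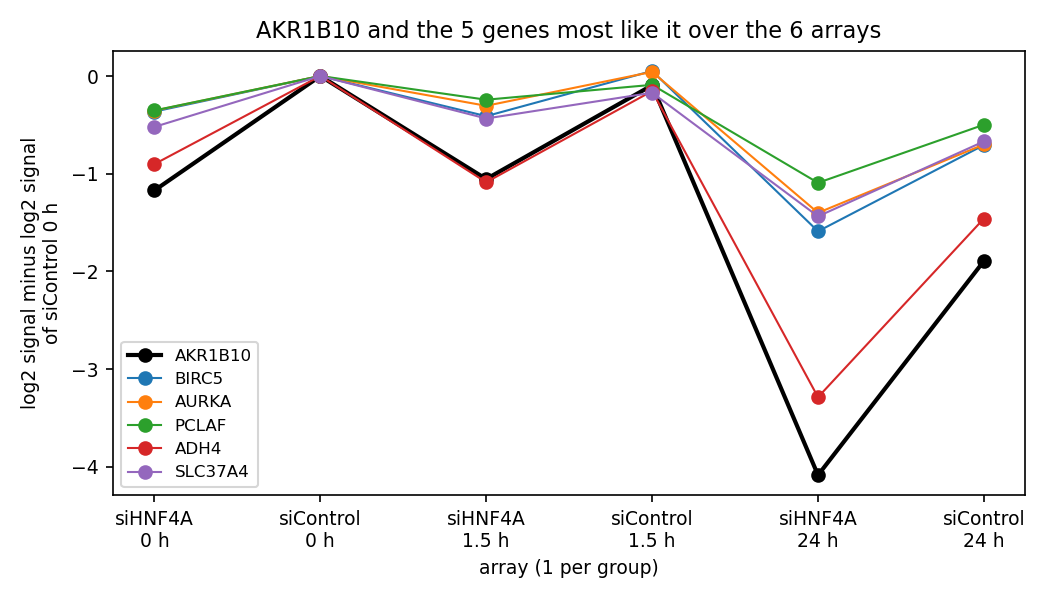
Log2 signal on each of the 6 arrays, minus that of the siControl 0 h array, of AKR1B10 (black) and of the 5 genes with the highest Pearson r to it. ADH4 and AKR1B10 reach the lowest values on the siHNF4A 24 h array, and the other 4 genes also have their lowest value there, over a smaller range.

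Of 27 further NRF2 targets tested, 8 fell at 24 h, none rose and 19 did not pass, and 23 of the 27 differences (85.2%) were below 0, with a median of -0.28. Of all genes tested 7.82% fell, 7.22% rose and 53.5% had a difference below 0, with a median of -0.03. MGST1, a membrane glutathione transferase, had 1018.6 in siHNF4A and 1475.4 in siControl at 24 h, against 2376.6 and 2895.9 at 0 h, and fell by 1.10 ± 0.11 (limma, adjusted p = 2.23e-05). OSGIN1, an oxidative stress-induced growth inhibitor (-1.13 ± 0.29), the bile exporter ABCC2 (-0.79 ± 0.16) and the glutathione reductase GSR (-0.61 ± 0.14) fell too (adjusted p = 0.0168, 0.00399 and 0.00946 in limma). The other 4 were UGDH (-0.59), FECH (-0.57), PIR (-0.56) and TKT (-0.46), named after their values were seen. With quantile normalization FECH did not pass, while AKR1C2 and FTL fell. Without the siControl 0 h array 8 fell as well, among them OSGIN1, MGST1, ABCC2 and GSR, while PIR and FECH did not pass and PGD and GPX2 did.

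For the siRNA, 3 of the 27 further targets fell, none rose and 24 did not pass, with a median of -0.15. Of all genes 4.16% fell and 3.9% rose, with a median of -0.04. GPX2, a glutathione peroxidase of epithelial cells, had 1983.0, 2060.1 and 1220.1 in siHNF4A at 0, 1.5 and 24 h, against 2941.8, 3439.0 and 3222.6 in siControl. It fell by 0.90 ± 0.13 (limma, adjusted p = 0.000436), with the siHNF4A signal lower at each time. PIR (-0.46, adjusted p = 0.0496 in limma) and MGST1 (-0.35, adjusted p = 0.0279) were the others, and with arrays scaled to the same median GPX2 was the 1 gene that fell. The PIR call also ended with quantile normalization, where AKR1C3 fell with GPX2 and MGST1, and without the siControl 0 h array, where AKR1C3 and PGD fell with them.

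Among regulators and partners of NRF2 the small MAF gene MAFF rose in both comparisons. Of 12 tested, 1 rose for the siRNA, where 3.9% of all genes rose, and 2 rose at 24 h, where 7.22% did. None of the 12 fell, where 4.16% of all genes fell for the siRNA and 7.82% at 24 h. The median log2 difference of the 12 was -0.003 for the siRNA and 0.06 at 24 h. MAFF, whose protein can pair with NRF2 or bind AREs without it, had 371.4, 510.0 and 1103.5 in siHNF4A at 0, 1.5 and 24 h, against 296.8, 301.0 and 512.8 in siControl. It rose by 0.73 ± 0.14 with siHNF4A (limma, adjusted p = 0.00542) and by 1.18 ± 0.17 at 24 h (adjusted p = 0.000381). NFE2L3, a relative of NRF2, rose by 0.81 ± 0.22 at 24 h (limma, adjusted p = 0.021) but its call ended without the siControl 0 h array. KEAP1 had -0.20 at 24 h and the ARE repressor BACH1 had 0.23, and neither passed.

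Of 11 genes of glutathione synthesis and use, 1 rose and 1 fell at 24 h, where 7.22% of all genes rose and 7.82% fell. The median log2 difference was -0.05 over the list and -0.03 over all genes. GLRX, a glutaredoxin that removes glutathione from proteins, had 4184.0 in siHNF4A and 4025.4 in siControl at 24 h, against 1710.5 and 2158.2 at 0 h. It rose by 1.09 ± 0.11 (limma, adjusted p = 2.47e-05), and GSR, given above, fell. Without the siControl 0 h array GPX2 fell too. SLC3A2, the heavy chain that partners SLC7A11, had -0.39 and did not pass (limma, adjusted p = 0.0878). For the siRNA GPX2 and GPX3 (-0.53 ± 0.12, adjusted p = 0.0119 in limma) fell and none rose, where 4.16% of all genes fell and 3.9% rose.

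Antioxidant enzymes outside the NRF2 lists mostly did not pass. Over all genes 4.16% fell and 3.9% rose for the siRNA, and 7.82% fell and 7.22% rose at 24 h. Of 15 tested, catalase (CAT) fell with siHNF4A (-0.50 ± 0.10, limma, adjusted p = 0.00591), with 1202.9, 1112.6 and 1502.9 in siHNF4A at 0, 1.5 and 24 h, against 1855.2, 1662.3 and 1839.6 in siControl. SESN3 had 0.75 and did not pass (adjusted p = 0.0507), though it did under both other scalings. At 24 h MSRB2, a methionine sulfoxide reductase, rose by 0.56 ± 0.18 (limma, adjusted p = 0.0495), a call that ended without the siControl 0 h array and with scaling to the median, and none fell. Without that array TXN2, the mitochondrial thioredoxin, fell.

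Among other aldo-keto reductases 1 of 6 tested fell in each comparison and none rose. Of all genes 4.16% fell and 3.9% rose for the siRNA, and 7.82% fell and 7.22% rose at 24 h. AKR7A2 fell with siHNF4A (-0.57 ± 0.12, limma, adjusted p = 0.0068), and AKR1D1, a bile acid reductase, fell at 24 h (-1.40 ± 0.28, adjusted p = 0.00352). AKR1D1 had 49.1, 50.8 and 19.1 in siHNF4A at 0, 1.5 and 24 h, against 96.9, 68.1 and 35.6 in siControl, and its siRNA difference of -0.77 did not pass (limma, adjusted p = 0.0515). AKR1C1 (-0.07), AKR1C2 (-0.28) and AKR1C3 (-0.38), which are NRF2 targets, did not pass at 24 h, except AKR1C2 with quantile normalization. AKR1C3 had -0.43 for the siRNA (limma, adjusted p = 0.057) and passed with quantile normalization and without the siControl 0 h array. The AKR1C genes are near-identical in sequence, so a probe set can read more than 1 of them.

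Of 10 genes of the ATF4 amino acid response, which shares SLC7A11 as a target, 3 fell at 24 h and none rose, with a median of -0.32, where 7.82% of all genes fell and 7.22% rose with a median of -0.03. They were PHGDH, the first enzyme of serine synthesis (-0.97 ± 0.17), the amino acid transporter SLC7A5 (-0.90 ± 0.16) and PSAT1, also of serine synthesis (-0.34 ± 0.10; limma, adjusted p = 0.00169, 0.00161 and 0.0326). The PSAT1 call ended without the siControl 0 h array and with scaling to the median. For the siRNA TRIB3 fell (-0.38, adjusted p = 0.0495 in limma), a call that ended under both other scalings, and none rose. Over all genes 4.16% fell and 3.9% rose for the siRNA. Without the siControl 0 h array TRIB3 and SLC7A5 fell and the asparagine synthetase ASNS rose. Some genes stand in more than 1 of these lists, so their counts are not independent.

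**Figure D5:**
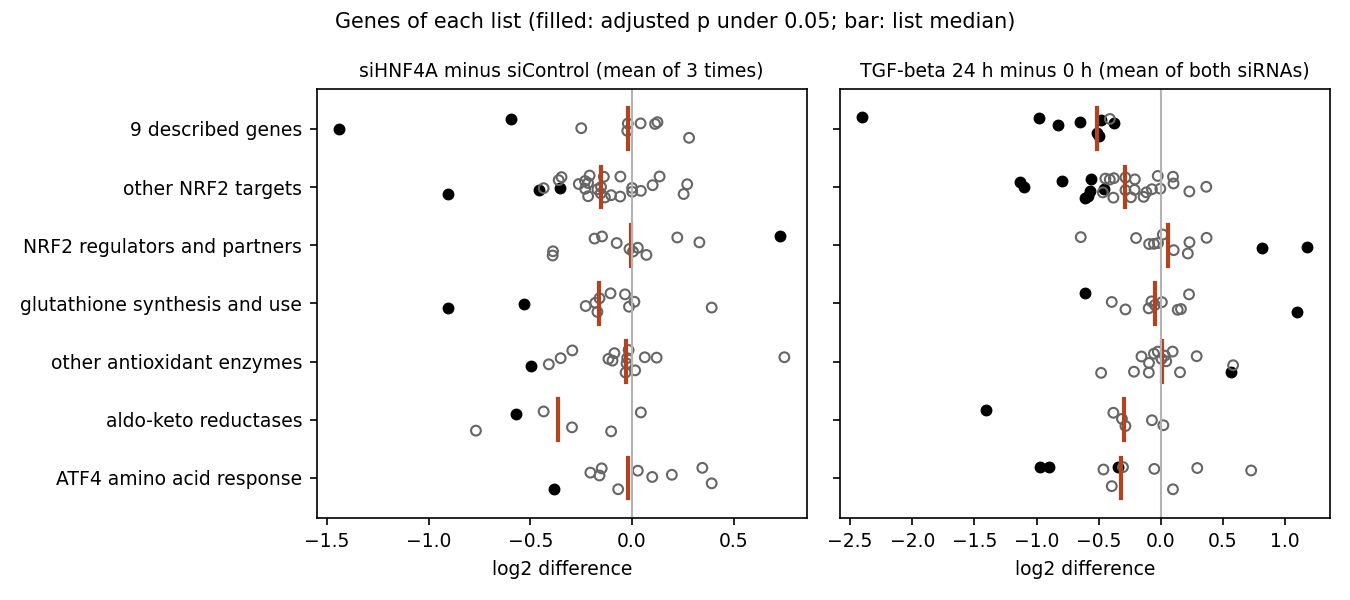
Log2 differences from limma of the genes of each list, siHNF4A minus siControl on the left and 24 h minus 0 h on the right, 1 point per gene, filled at an adjusted p under 0.05, with the list's median as a bar. On the right the 9 genes have a median of -0.51 and the further NRF2 targets -0.28, and the regulators hold the filled points above 0 for MAFF and NFE2L3.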

How the data were processed

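Total RNA of HepG2 cells was hybridised to 6 Affymetrix arrays, 1 per group. The deposited intensities, not log-transformed, were made by the authors with MAS5 5.0 and GCOS, per the submitters' processing notes, and had a trimmed mean of 100.0 on each array. The number of arrays limits the precision. Probe sets were named from the platform annotation: of 54675, 41097 had 1 gene symbol, 1801 several (not named) and 11777 none. Signals under the floor (12.9) were set to it before log2 was taken, and the 11921 genes with a mean signal above it were fitted. limma 3.58.1 in R 4.3.3 (lmFit, eBayes with an intensity trend) took siRNA and time as terms, with 2 residual and 12.6 prior degrees of freedom. Without replicates, p-values set a difference against how far it repeats over times or siRNAs and against limma's prior. A further fit added the siRNA difference at 24 h (1 residual, 8.56 prior degrees of freedom). p-values were Benjamini-Hochberg adjusted over all genes, with a threshold of 0.05.

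The 9 genes and the lists were chosen with earlier results of these data known. Of each list up to 4 genes with the largest differences per comparison were named, with KEAP1, BACH1, AKR1C1 and other called genes added after their values were seen, and for AKR1B10 the 5 genes of highest Pearson r. The fitting step was tested on simulated data. As alternatives, arrays were quantile normalized or scaled to 1 median, the floor was set at the 40th or 60th percentile or replaced by a pseudocount, the probe sets of each gene were averaged or those with the suffix _x_at or _s_at dropped, dim genes were kept, and the intensity trend was left out. Others were 1.5 h as the reference of 24 h, and leaving out each pair of arrays or the siControl 0 h array. List counts under the scalings and without that array were added after seeing the data. Whether arrays came from separate cultures or transfections is not in the labels. Tables used Python 3.11.15 and pandas 2.3.3. The HNF4A signal is not reported here.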

Additional observations from a re-analysis of the deposited data

Results flagged for a closer look

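In 6 of the 9 genes the 1.5 h array lay on opposite sides of the 0 h array in the siRNA arms, with a single array per group. The share of all genes that did so was not counted, so the 6 are a description only. Over all 11921 genes, with the outer tails left aside, these differences ran from -0.85 to 0.64 in siHNF4A. In siControl they ran from -0.72 to 0.74, and the values given here lie inside both ranges. The log2 difference of 1.5 h minus 0 h was 0.12 in siHNF4A and -0.09 in siControl for AKR1B10, and 0.08 and -0.14 for GCLC. It was -0.05 in siHNF4A and 0.08 in siControl for NQO1, -0.07 and 0.17 for TXNRD1, -0.16 and 0.11 for SRXN1, and -0.2 and 0.13 for HMOX1. The difference between the arms was not tested, and no 1.5 h difference of these genes passed over both arms. The siControl values rest on the siControl 0 h array, which stood apart in a control probe set.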

How the results depend on the processing

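Among the values of single genes under the alternatives, 344 kept their direction and their side of the threshold, 31 lost a call, 3 gained one and 19 changed sign. The 24 h difference of each of the 9 genes stayed below 0 under every alternative run. AKR1B10 ranged from -1.68 to -1.07 for the siRNA and from -2.60 to -2.35 at 24 h. No paired analysis was possible because each group is 1 array with no replicate number to block on, beyond the time and siRNA terms that the fit already holds.

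Of the 9 genes, 2 were called for the siRNA; this was 0 with probe sets averaged per gene, with dim genes kept and with no intensity trend. It was 1 without _x_at and _s_at probe sets (where AKR1B10 and NQO1 have no value) and without either the 1.5 h or the 24 h pair, and 3 with quantile normalization. At 24 h 8 were called, against 4, 0 and 2 under the first 3 of these and 5 without the siControl 0 h array, and the term for the siRNA at 24 h called 1 with a pseudocount and 0 otherwise. Over all genes 961 calls for the siRNA became 227, 0 and 45 under the same 3, 578 with the 1.5 h pair left out and 242 with the 24 h pair left out, and 1793 calls at 24 h became 806, 1 and 457. The 12 calls at 1.5 h became 0 under each of the 3, 7 without _x_at and _s_at probe sets and 26 without the siControl 0 h array. The 24 h siRNA term had 0 calls over all genes, 4 with the floor at the 40th percentile, 24 with a pseudocount and 639 without the filter. The cause of these changes was not tested.

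Values that changed sign had not passed under either setting. For the siRNA they were TXNRD1 -0.0184 (quantile), GCLM 0.0258 and NFE2L2 0.0286 (median scaling), GCLC -0.0075 and NFE2L2 0.0268 (mean of probe sets), GCLM 0.0342 without the siControl 0 h array or the 0 h pair, GCLM 0.0909 when the 1.5 h pair was left out, and TXNRD1 -0.0287 and SRXN1 -0.0645 without the 24 h pair. At 1.5 h they were AKR1B10 -0.0362 and NQO1 -0.0619 (quantile), GCLC 0.0427 (no _x_at or _s_at), and AKR1B10 -0.1912, NQO1 -0.1065, GCLC 0.0563 and SRXN1 0.0123 without the siControl 0 h array. For the siRNA term at 24 h they were NFE2L2 -0.1387 (mean of probe sets) and GCLC -0.0396 (no _x_at or _s_at). Fits without an array or a pair had 1 residual degree of freedom and rest largely on limma's prior.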
